A study of Mus musculus with 34 samples.

Results

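The interaction of ALY688 and LPS in mouse blood was examined in 30 libraries of 34 labelled samples. The interaction is the LPS response with ALY688 minus the LPS response without it, gene by gene, on the log2 scale. Messenger RNA was sequenced from blood of wild-type mice, 1 mouse per library. There were 9 libraries from mice given phosphate-buffered saline (PBS), 10 from mice given ALY688 alone, 4 from mice given LPS alone (mice 2, 6, 7 and 8) and 7 from mice given both (mice 1, 3, 4, 6, 7, 8 and 10). Not analysed here were PBS mouse 10 and LPS mice 3, 4 and 5. The labels give each mouse a number within its group and do not say whether equal numbers in different groups mean the same mouse. The labels read here state no dose, sampling time, sex or age. The design text treats mice without LPS and mice with LPS apart, so they may be separate experiments, and LPS and experiment cannot be told apart. It also calls the material of the mice without LPS plasma, whereas every sample is labelled blood. A constant log2 offset between the experiments cancels in the interaction by construction, but enters both LPS responses.

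LPS, lipopolysaccharide from the outer membrane of Gram-negative bacteria, is recognised by TLR4 together with CD14 and MD-2. Signalling through MyD88 activates NF-kB and induces cytokines and their brakes, and signalling through TRIF induces interferons and the genes that interferons switch on. In blood, LPS is known to mobilise neutrophils and to deplete lymphocytes. ALY688 is a peptide agonist of the receptors for adiponectin, a hormone of fat tissue that acts through ADIPOR1, ADIPOR2 and AMP-activated kinase and is known to dampen inflammatory signalling. Whether ALY688 changes the response to LPS is the question this contrast addresses.

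Libraries held 9554964 to 17338214 counts. Defining markers of neutrophils, monocytes, T cells, B cells, NK cells, platelets and red cells were all detected in every library. Between 18.4% and 64.3% of counts fell in globin genes, and that share did not move alike in both settings. Mean globin share was 56.3% with PBS, 49.2% with ALY688, 30.4% with LPS and 40.5% with both. The difference of differences was 17.2 percentage points (exact permutation test within mice without and with LPS, two-sided, p = 0.0248, adjusted p over 3 library properties 0.0433). The null of that test is no ALY688 effect in either setting, so its p does not test equal effects alone. Without LPS mouse 2 or LPS mouse 6 the difference of differences was 16.5 or 13.2 points, with p = 0.0545 or 0.0882 in the same exact permutation test. Globin shares of PBS mice (45.1% to 64.3%) and LPS mice (18.4% to 43.7%) did not overlap. A fit with the globin share as a covariate therefore extrapolates the LPS response without ALY688. Fewer than 16000 genes were detected in 6 libraries: PBS mice 5, 6 and 9, ALY688 mouse 7 and ALY688+LPS mice 6 and 8. In bulk blood, fewer cells of a type and less RNA per cell cannot be told apart.

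No gene passed the test of the interaction. Of 13476 genes tested, 0 had an adjusted p below 0.05 (0% called), 1217 had an unadjusted p below 0.05 where 674 would be expected of independent true nulls, and the smallest adjusted p was 0.244, for Klra8. limma-voom called 0 genes as well, with 1054 at an unadjusted p below 0.05. The surplus over 674 was not stable in edgeR. Leaving out single libraries gave from 521 genes (without LPS mouse 6) to 2308 (without LPS mouse 7) at an unadjusted p below 0.05. There were 659 without ALY688+LPS mouse 8 and 413 without the libraries with few detected genes. With the globin share as a covariate the number also lay below 674. DESeq2 called 4, each at an adjusted p of 0.0375: Klra8, Tspoap1 and Ighg2c with negative values and the processed pseudogene Rps12-ps4 with a positive one. Rps12-ps4 is named only because DESeq2 called it. The median 95% interval of an interaction reached 0.70 log2 units to either side, and 6316 genes (46.9%) had an interval within 2-fold in both directions. For the other genes, the interval reached 2-fold or more in at least 1 direction.

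The LPS responses themselves were large in both settings. Without ALY688, 3164 genes rose (23.5%) and 2823 fell (20.9%), 44.4% of genes called. With ALY688, 3317 rose (24.6%) and 3190 fell (23.7%), 48.3% called. The split depended on scaling: without TMM factors, 6527 rose and 371 fell without ALY688, and 2074 rose and 1127 fell with it. The 2 responses share no library. Across all genes tested, Pearson's r between them was 0.845 and Spearman's rho 0.796, given as descriptions, since genes are not independent replicates and the scaling and fit are shared. A set of 4353 genes was called in both responses in the same direction, which is 72.7% of the genes called without ALY688 and 66.9% of those called with it. Another 3784 genes were called in 1 response only. Of these, 3412 had the same sign in the other response and 742 had an unadjusted interaction p below 0.05. Being called in 1 response only favours genes whose responses differ, so these counts are descriptions. No gene tested had a called interaction, so the calls alone do not show a response limited to 1 setting. Only 2 genes were called in both responses with opposite signs, Klra8 and Tspoap1.

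**Figure D1:**
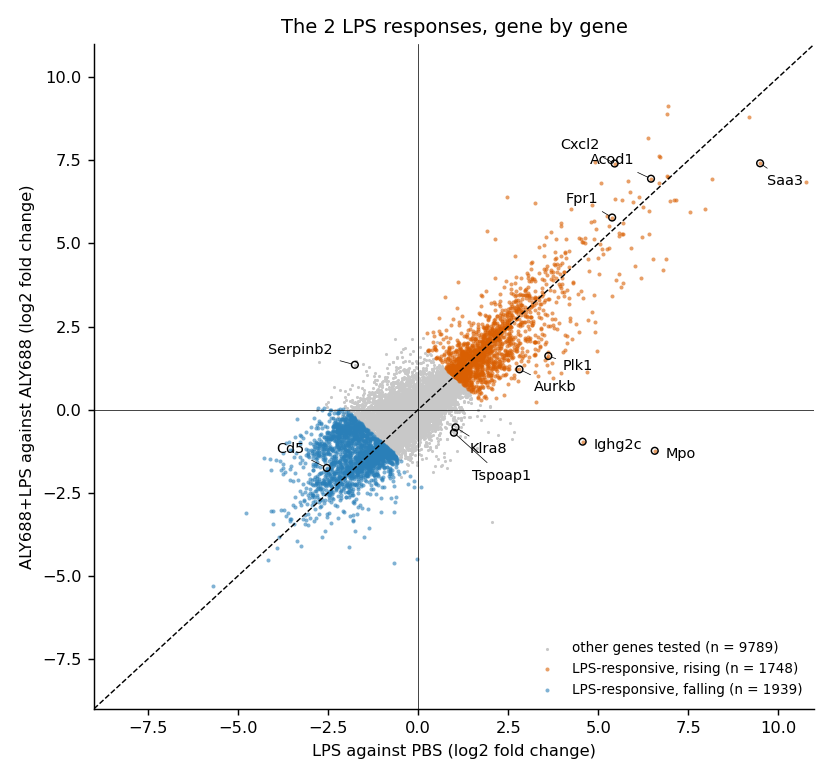
Each point is 1 gene, with its log2 fold change for LPS against PBS on the horizontal axis and for ALY688+LPS against ALY688 on the vertical axis; the dashed line marks equal responses. Colours mark the 1748 rising and 1939 falling genes chosen by the average of both responses, and named genes are circled. Acod1 and Fpr1 lie near the line, while Mpo, Ighg2c, Klra8 and Tspoap1 lie below it.

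To compare response sizes, genes were chosen by the average of both responses. This average had to be called at an adjusted p below 0.05 (60.2% of genes, 29.1% higher and 31.1% lower) and be at least 2-fold. It weights both responses equally, but their precision differed. The median half-width of the 95% interval was 0.545 without ALY688 and 0.451 with it. The choice of genes is therefore not independent of the interaction. The rule used these same responses, so their sizes are a description. Of the tested genes, 1748 rose by this rule (13% of genes) and 1939 fell (14.4%). Rising genes had a median response of 1.77 log2 units without ALY688 and 1.68 with it. Per gene, the median ratio of the response with ALY688 to that without was 1.00 (quartiles 0.807 and 1.18), 859 responses were smaller with ALY688 and 889 were larger. Falling genes had a median response of -1.76 without and -1.35 with ALY688. Their median ratio was 0.866 (quartiles 0.471 and 1.18), and 1192 of them (61.5%) fell less with ALY688. Over all genes tested, 53.2% of interactions were negative and 46.8% positive, with a median of -0.03. Intervals within 2-fold covered 661 rising genes (37.8%) and 307 falling genes (15.8%). The ratio of the falling genes depended on how they were chosen: it was 0.627 over genes called in LPS against PBS and 1.13 over genes called in ALY688+LPS against ALY688.

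Single mice differed in the size of their response, and ALY688+LPS mouse 4 stood lowest. Set against the mean of its own control group, each LPS mouse changed by a median of 1.58 to 1.81 log2 units over the rising genes and by -1.44 to -1.39 over the falling genes. ALY688+LPS mouse 4 changed by 1.29 and -0.735, the smallest response in both sets. ALY688+LPS mouse 8 changed by 1.37 and -1.27. The other ALY688+LPS mice changed by 1.62 to 1.78 over rising genes and by -1.72 to -1.19 over falling genes, overlapping the LPS mice in both sets. Leaving out ALY688+LPS mouse 4 moved the ratio of the falling genes to 0.969. Globin took 39.8% of the counts in mouse 4 and 54.3% in mouse 8, and its part in their responses was not tested.

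**Figure D2:**
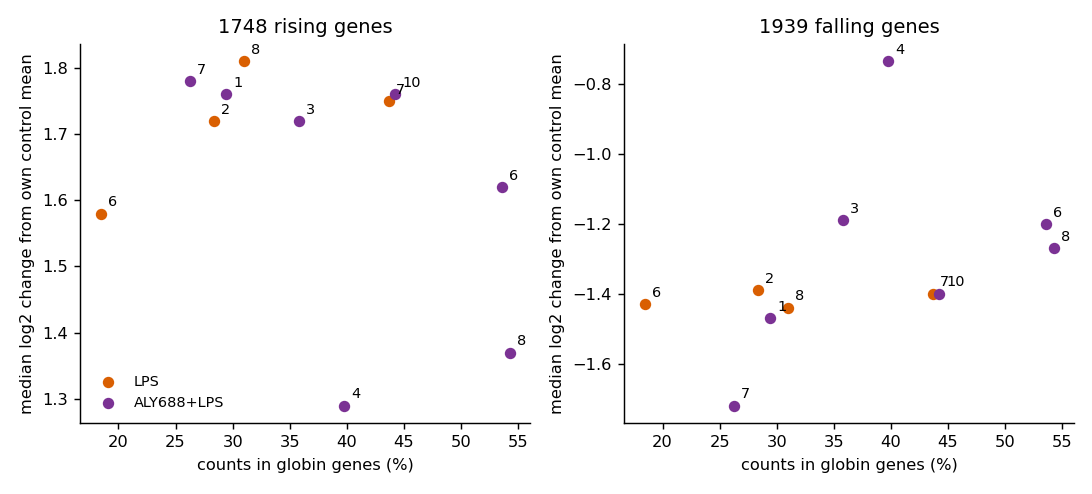
Each point is 1 mouse given LPS (orange) or ALY688+LPS (purple), labelled with its mouse number. The vertical axis gives the median log2 change from the mean of its own control group over the rising (left) and falling (right) genes, and the horizontal axis the percentage of counts in globin genes. Over falling genes ALY688+LPS mouse 4 sits at -0.735, apart from the other mice; over rising genes mice 4 and 8 (1.29 and 1.37) sit below the rest.

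Cytokines of the LPS response were induced in both settings. Of 28 cytokine and chemokine genes tested, 15 rose and 1 fell without ALY688, where 23.5% of all genes rose. With it, 20 rose and 1 fell, where 24.6% of all genes rose. The interaction passed for 0 of them, and its median over the list was 0.16 (0.34 without ALY688 mouse 3). Tnf, an early cytokine of activated phagocytes, stood at 15.5, 9.96, 24.5 and 28.5 CPM (counts relative to TMM-scaled library size) in LPS mice 2, 6, 7 and 8. In ALY688+LPS mice it ranged from 5.50 (mouse 4) over a median of 16.4 to 34.4 CPM. Both LPS groups lay above every mouse without LPS, the highest of which had 3.68 CPM, and overlapped each other. Its response was 3.62 ± 0.34 (log2, SE) without and 3.32 ± 0.29 with ALY688, and the 95% interval of the interaction ran from -1.24 to 0.64. The interaction was -0.30, -0.52 without LPS mouse 6 and -0.06 without LPS mouse 8.

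Il1b, which encodes the precursor of interleukin-1 beta, reached 346, 178, 574 and 602 CPM in the LPS mice and 326 to 627 CPM (median 506) in the mice given both. These groups overlapped. Mean Il1b was 111 CPM with PBS and 73.9 CPM with ALY688, against 425 CPM with LPS and 490 CPM with both. The interaction therefore also holds the lower mean of ALY688 mice without LPS. The response was 1.94 ± 0.35 without and 2.73 ± 0.31 with ALY688, with an interaction of 0.79 (interval -0.20 to 1.77). It was 0.52 without LPS mouse 6, 0.46 with the globin share as a covariate and 0.44 without the 6 libraries with few detected genes. Cxcl2, a neutrophil chemokine, stood at 34.5, 6.74, 35.7 and 27.8 CPM with LPS and at 14.2 to 65.0 CPM (median 54.7) with both, against at most 1.90 CPM in any mouse without LPS. LPS mouse 6 was the lowest of all LPS-treated mice for Il1b and Cxcl2. Il1a had the smallest unadjusted interaction p of the list (0.021, adjusted 0.506): its response was 0.42 ± 0.59 without ALY688, which did not pass, and 2.32 ± 0.48 with it, which did. The Il1a interaction was 1.9, and 2.02 with the globin covariate. Il10, an anti-inflammatory cytokine, had no count in any of the 19 mice without LPS and reached 0.673 to 1.55 CPM with LPS and 0.0585 to 2.18 CPM with both, so no ratio of responses is given. Il6 had too few counts to be tested, with 12 counts over 4 LPS libraries and 70 over 7 ALY688+LPS libraries, of which 41 came from 1 library.

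Brakes on the response also rose in both settings. Among 29 genes of NF-kB subunits and brakes on inflammation, 21 rose and 1 fell without ALY688, where 23.5% of all genes rose. With it, 20 rose and 1 fell, where 24.6% of all genes rose, and 0 passed the interaction. Nfkbia, whose product holds NF-kB in the cytoplasm, stood at 101, 90.1, 153 and 175 CPM with LPS and at 69.7 (mouse 4) to 210 CPM (median 163) with both, overlapping. Its interaction was 0.21 ± 0.27, with an interval of -0.33 to 0.76, which lies within 2-fold, and was 0.07 without LPS mouse 6 and 0.39 without LPS mouse 8. Socs3, an inhibitor of cytokine receptor signalling, responded by 2.75 ± 0.21 and 2.98 ± 0.18, with an interval of the difference from -0.35 to 0.80. Tnfaip3, the ubiquitin-editing enzyme A20, responded by 0.84 ± 0.28 and 0.91 ± 0.23, with an interval from -0.68 to 0.83. Il1rn, the antagonist of the interleukin-1 receptor, responded by 3.54 ± 0.35 and 4.24 ± 0.32, with an interval that reached 1.69.

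Genes of LPS recognition and secreted effectors did not pass either. Among 23 genes of the TLR4 complex and its signalling, 0 passed the interaction and 19 had an interval within 2-fold, and Tlr4 itself responded by 2.11 ± 0.21 without and 2.36 ± 0.18 with ALY688. Acod1, whose enzyme makes itaconate in activated macrophages, stood at 43.8, 36.7, 57.9 and 58.9 CPM with LPS and at 18.7 (mouse 4) to 78.4 CPM (median 66.1) with both, against at most 1.42 CPM without LPS, where it rested on few reads. Its fitted response was 6.46 ± 0.33 and 6.95 ± 0.30. Lcn2, which encodes a protein that withholds iron from bacteria, responded by 6.13 ± 0.48 and 6.39 ± 0.44. Saa3, an acute phase gene with near-identical relatives, spanned 129 to 188 CPM over the LPS mice and 45.7 to 504 CPM over the mice given both, and its interaction of -2.08 had an interval from -5.03 to 0.87. That value rested on ALY688 mouse 4, which stood at 11.1 CPM where the median of its group was 0.0685 CPM: without it the interaction was -0.02. Of 21 secreted antimicrobial and acute phase genes, 21 rose without ALY688 and 20 with it, against 23.5% and 24.6% of all genes. The interaction passed for 0 of them.

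**Figure D3:**
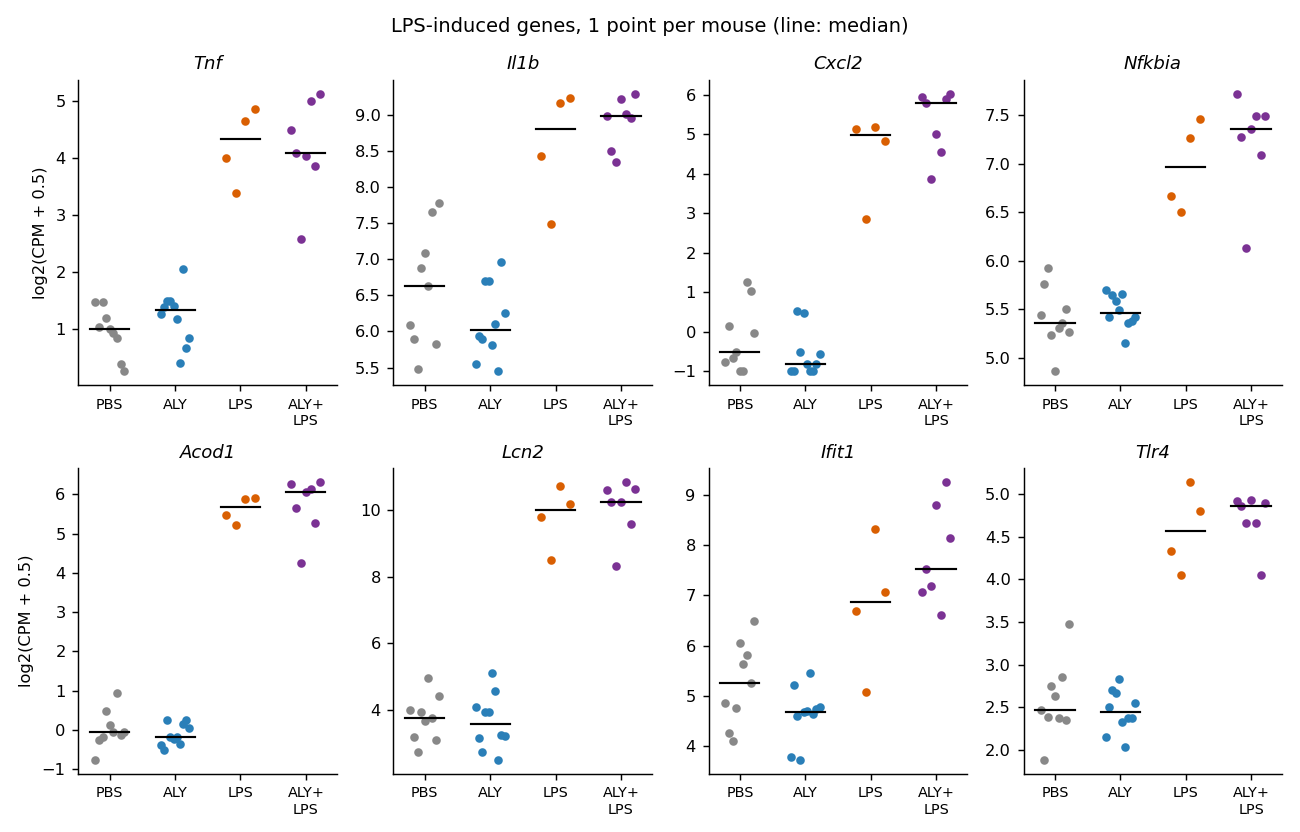
Each point is 1 mouse, the vertical axis is log2(CPM + 0.5), and the line marks the group median for 8 LPS-induced genes. LPS and ALY688+LPS mice overlap in all 8 panels; Tnf reaches 34.4 CPM in the ALY688+LPS group and 28.5 CPM in the LPS group.

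Promoters of 4 of these genes are shown because their transcripts rose in both settings and their sequence holds a short motif of the factors that LPS and interferon are known to activate. The 250 bases before the RefSeq start site (GRCm38.p6) are written 5′ to 3′ on the strand of the gene, with capitals at each match on either strand. An NF-kB-like motif (GGG, any 2 bases, TTTCC) was searched for Nfkbia (chr12:55492648-55492897, minus strand) and Cxcl2 (chr5:90903649-90903898, plus strand). The core of an interferon response element (GAAA, any 2 bases, GAAA) was searched for Cxcl10 (chr5:92348890-92349139, minus strand) and Ifit1 (chr19:34640639-34640888, plus strand).
Nfkbia: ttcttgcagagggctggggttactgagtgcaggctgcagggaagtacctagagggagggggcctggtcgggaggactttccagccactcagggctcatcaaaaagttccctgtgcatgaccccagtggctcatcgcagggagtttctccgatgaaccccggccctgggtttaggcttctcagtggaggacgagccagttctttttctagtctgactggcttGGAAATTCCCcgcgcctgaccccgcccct
Cxcl2: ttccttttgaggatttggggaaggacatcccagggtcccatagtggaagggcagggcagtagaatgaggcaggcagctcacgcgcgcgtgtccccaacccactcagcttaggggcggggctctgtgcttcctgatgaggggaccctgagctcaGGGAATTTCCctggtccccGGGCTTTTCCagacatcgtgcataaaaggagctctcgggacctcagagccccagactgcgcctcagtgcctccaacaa
Cxcl10: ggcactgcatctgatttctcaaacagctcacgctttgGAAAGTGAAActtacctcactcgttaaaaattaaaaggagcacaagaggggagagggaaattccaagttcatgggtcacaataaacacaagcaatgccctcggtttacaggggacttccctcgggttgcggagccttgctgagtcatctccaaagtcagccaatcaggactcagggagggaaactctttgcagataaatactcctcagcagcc
Ifit1: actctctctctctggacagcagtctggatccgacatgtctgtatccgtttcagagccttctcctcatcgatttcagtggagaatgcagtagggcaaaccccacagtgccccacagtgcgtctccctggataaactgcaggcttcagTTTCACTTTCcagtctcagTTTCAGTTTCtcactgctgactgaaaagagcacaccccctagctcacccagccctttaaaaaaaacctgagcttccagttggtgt
Nfkbia held 1 match, Cxcl2 2, Cxcl10 1 and Ifit1 2. Over windows of the same length, 1.65% of 27025 RefSeq genes held the NF-kB-like motif and 3.46% held the interferon response core. In all, 6 motif spellings were searched in 2 window lengths, and the 4 genes were chosen after their matches were seen. A match is a description of these letters only. RefSeq promoters were found for 9769 of the 13476 genes tested, fewer than 80%, so a comparison of motif shares between gene sets is void and is not given.

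Interferon-stimulated genes rose in both settings, mostly by more with ALY688, a difference that passed the test in 0 genes. Of 40 type I interferon-stimulated genes, 34 rose without ALY688 and 37 with it, against 23.5% and 24.6% of all genes. None fell, and the median response was 1.70 and 2.19. Interactions were positive for 35 of 40 (46.8% of all genes) with a median of 0.57 (0.37 without LPS mouse 6), and 0 passed. The median over the list was -0.23 for ALY688 against PBS and 0.29 for ALY688+LPS against LPS. Ifit1, whose product binds viral RNA, stood at 102, 32.9, 320 and 134 CPM in LPS mice 2, 6, 7 and 8 and at 97.1 to 612 CPM (median 185) in mice given both. Only LPS mouse 6 lay below every ALY688+LPS mouse. In the groups without LPS, Ifit1 ranged from 16.7 to 89.5 CPM (median 37.4) with PBS and from 12.7 to 43.3 CPM (median 25.1) with ALY688. Its responses were 1.78 ± 0.46 and 3.41 ± 0.41, and the interaction of 1.63 had an unadjusted p of 0.0172 and an adjusted p of 0.506. With the globin share as a covariate, the Ifit1 interaction was 0.18 and the list median 0.09. Without the 6 libraries with few detected genes they were 0.57 and 0.33. Oasl2 and Xaf1, other antiviral genes, had interactions of 1.17 and 1.09, neither of which passed, and of 0.44 and 0.11 with the globin covariate.

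No gene of the adiponectin pathway passed the interaction. Of 22 adiponectin receptor and AMP-activated kinase signalling genes tested, 0 passed the interaction, 14 had an interval within 2-fold, and the median was 0.13. Adipor2 stood at 52.9, 48.6, 78.3 and 63.6 CPM with LPS and at 54.2 to 67.0 CPM (median 61.7) with both, above every mouse without LPS (at most 40.1 CPM). It rose by 0.91 ± 0.11 without and 0.80 ± 0.09 with ALY688, and the interval of the difference, -0.41 to 0.20, lay within 2-fold. Adipor1 ranged from 237 to 1510 CPM with LPS and from 474 to 5580 CPM with both. The highest values of the ALY688+LPS, ALY688 and PBS groups, 5580, 6790 and 3850 CPM, came from mouse 8, mouse 7 and mouse 5 of those groups, all among the libraries with few detected genes. The Adipor1 interaction was 1.36 ± 0.83 in all libraries, 0.22 without those libraries and -0.66 with the globin share as a covariate. Cdh13, which encodes T-cadherin, a binding protein of adiponectin, had at most 7 counts in any library and was not tested.

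The genes with the smallest interaction p were led by Klra8 (chromosome 6, 130115226 to 130129898, GRCm38), an activating NK cell receptor of the Ly49 family whose reads may be shared with close relatives. It stood at 10.4, 18.4, 12.0 and 13.3 CPM in LPS mice 2, 6, 7 and 8 and at 4.74 to 12.1 CPM (median 6.47) in mice given both. Without LPS it ranged from 3.76 to 10.5 CPM (median 6.31) with PBS and from 7.45 to 16.7 CPM (median 10.4) with ALY688. Each group overlapped at least 1 other. Klra8 rose by 1.04 ± 0.24 in response to LPS without ALY688 (adjusted p = 0.000641) and fell by 0.53 ± 0.20 with it (adjusted p = 0.0291). The interaction was -1.57 ± 0.31 (unadjusted p = 1.81e-05, adjusted p = 0.244). The fall with ALY688 did not pass without the 6 libraries with few detected genes (-0.40, adjusted p = 0.122). Nor did it pass without ALY688+LPS mice 4 and 8 (-0.37, adjusted p = 0.153). The rise without ALY688 did not pass with the globin covariate (0.40, adjusted p = 0.329), a value extrapolated between groups whose globin shares did not overlap. The interaction with that covariate was -1.2. Without ALY688+LPS mouse 1 the interaction was called (-1.73, adjusted p = 0.0379).

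Tspoap1 (chromosome 11, 87760541 to 87785928), which encodes a partner of the mitochondrial protein TSPO, stood at 4.76, 4.41, 1.73 and 3.06 CPM in the LPS mice. It ranged from 0.508 to 2.22 CPM (median 1.49) in mice given both, so that LPS mice 2, 6 and 8 lay above all of them and LPS mouse 7 within their range. It rose by 0.99 ± 0.29 without ALY688 and fell by 0.69 ± 0.25 with it, with an interaction of -1.68 ± 0.38 (adjusted p = 0.399). ALY688 against PBS was 0.48, and ALY688+LPS against LPS was -1.20. The rise without ALY688 did not pass with the globin covariate (0.37, adjusted p = 0.512), which again is an extrapolated value. The interaction with that covariate was -1.3. The fall with ALY688 did not pass without ALY688+LPS mice 4 and 8 (-0.62, adjusted p = 0.0549). Ighg2c, an immunoglobulin constant region with close relatives, rested on few reads: it stood at 1.77, 1.72, 0.288 and 0.518 CPM with LPS and at most 0.565 CPM with both. Fanca, a subunit of the Fanconi anaemia DNA repair complex, stood at 15.4, 12.1, 11.4 and 17.0 CPM with LPS and at 7.37 to 11.7 CPM (median 8.74) with both. It rose by 1.04 ± 0.16 without ALY688, responded by 0.17 ± 0.14 with it (not passed), and had an interaction of -0.87 (interval -1.30 to -0.44, adjusted p = 0.506).

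Among positive interactions, Tank, which encodes an adaptor that binds TRAF proteins, stood at 18.2, 20.4, 19.7 and 20.1 CPM with LPS and at 19.0 to 35.1 CPM (median 22.9) with both. Tank rose with ALY688 (0.54 ± 0.12) and responded by -0.02 ± 0.14 without it, with an interaction of 0.56 (interval 0.18 to 0.94). That interaction also holds a difference without LPS: ALY688 against PBS was -0.27, and ALY688+LPS against LPS was 0.30. The interaction was 0.30 with the globin covariate and 0.28 without the libraries with few detected genes. Serpinb2, a plasminogen activator inhibitor, spanned 1.41 to 5.39 CPM with LPS and 2.98 to 37.9 CPM with both, and 1.56 to 40.5 CPM with PBS. Its groups overlapped widely, neither LPS response passed, and the interaction was 3.11 ± 0.98 (adjusted p = 0.506). The other 8 of the 10 positive interactions with the smallest p ranged from 0.63 (Bloc1s6) to 4.20 (Shisal2b, at most 3.30 CPM in any mouse), all at an adjusted p of 0.506. With the globin covariate, Shisal2b was at 1.52, Acyp2 at 0.45 in place of 2.60, Sardh at 0.88 in place of 2.26 and Bloc1s6 at 0.38. Serpinb2 was then at 3.05 in place of 3.11.

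**Figure D4:**
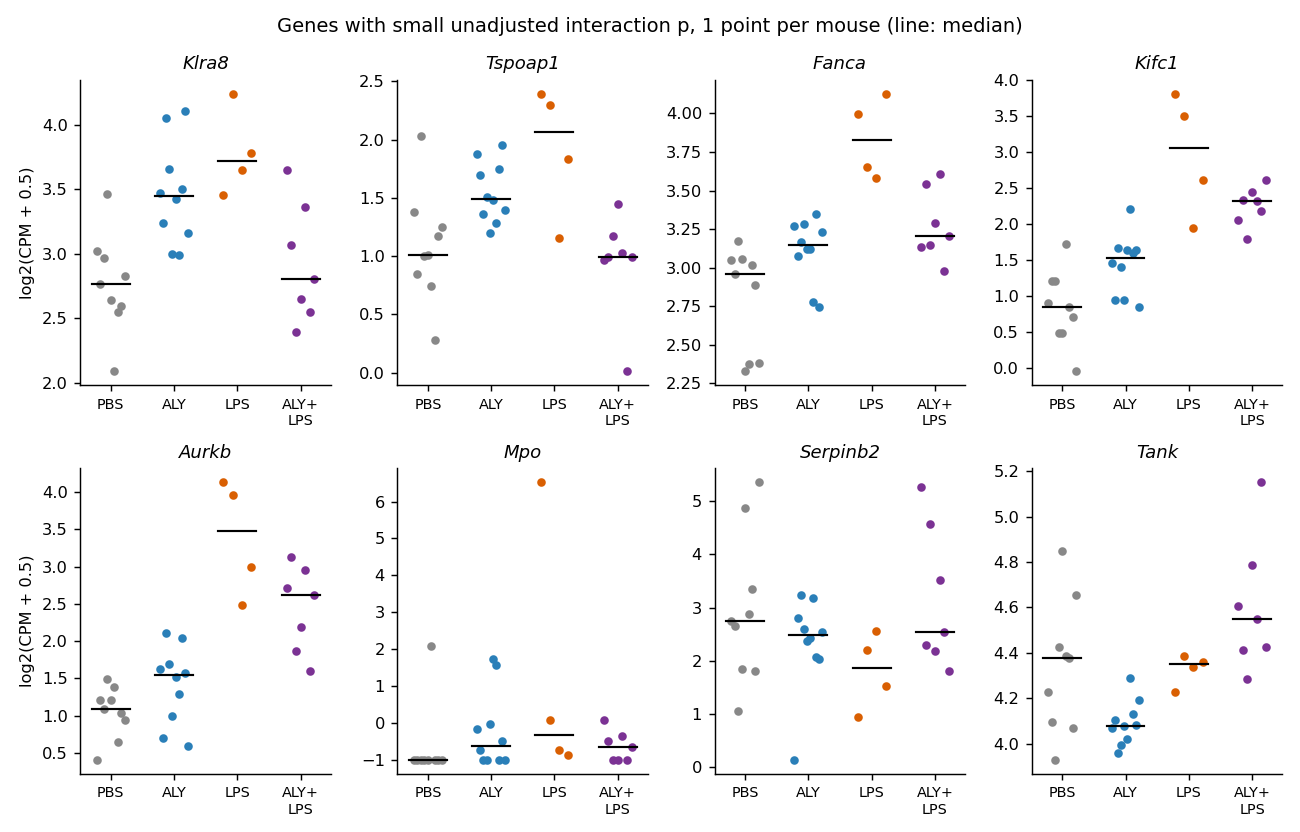
Each point is 1 mouse, the vertical axis is log2(CPM + 0.5), and the line marks the group median, for 8 genes with small unadjusted interaction p. For Mpo, 1 LPS mouse at 91.3 CPM stands apart, and for Klra8 the LPS mice (10.4 to 18.4 CPM) overlap the ALY688+LPS mice (4.74 to 12.1 CPM).

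Proliferation genes rose in both settings, by a median of 2.27 without and 1.35 with ALY688. Of 37 tested, 34 rose without ALY688 and 32 with it, against 23.5% and 24.6% of all genes. Interactions were negative for 34 of 37, with a median of -0.85, against 53.2% negative and a median of -0.03 over all genes. None passed, and 13 had an unadjusted p below 0.05. Aurkb, the mitotic kinase aurora B, stood at 17.0, 15.1, 5.10 and 7.44 CPM in LPS mice 2, 6, 7 and 8 and at 2.54 to 8.22 CPM (median 5.61) in mice given both. LPS mice 2 and 6 lay above all ALY688+LPS mice, and LPS mice 7 and 8 lay within their range. Its responses were 2.81 ± 0.32 and 1.21 ± 0.27, with an interaction of -1.60 ± 0.43 (adjusted p = 0.506). For Aurkb, ALY688 against PBS was 0.54 and ALY688+LPS against LPS was -1.06. Kifc1, a mitotic kinesin, stood at 13.6, 10.8, 3.37 and 5.60 CPM with LPS and at 2.99 to 5.61 CPM (median 4.50) with both, with LPS mice 2 and 6 again above all mice given both. Its responses were 2.57 ± 0.30 and 0.95 ± 0.26. Plk1, polo-like kinase 1, responded by 3.61 ± 0.54 and 1.61 ± 0.44, and E2f8, a repressor of the cell cycle, by 2.70 ± 0.33 and 1.39 ± 0.27. The list median was -0.61 without LPS mouse 2, -1.07 without LPS mouse 7 and -0.89 with the globin covariate.

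NK and cytotoxic cell genes also had mostly negative interactions. Of 25 tested, 23 were negative with a median of -0.49, against 53.2% negative and a median of -0.03 over all genes. None passed. Without ALY688, 11 rose and 0 fell, where 23.5% of all genes rose. With ALY688, 4 rose and 2 fell, where 24.6% of all genes rose and 23.7% fell. Eomes, a transcription factor of NK cells, stood at 15.4, 26.0, 12.1 and 14.4 CPM with LPS and at 5.15 to 14 CPM (median 9.14) with both. LPS mouse 7 lay within the range of the mice given both and the other LPS mice above it. Its interaction was -1.07 ± 0.34 (adjusted p = 0.506), and -0.67 with the globin covariate. The list median was -0.27 without LPS mouse 6, -0.10 with the globin covariate and -0.20 without libraries with few detected genes.

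The immature neutrophil granule genes rested on LPS mouse 2. Their median interaction over 12 genes tested was -0.94 in all libraries and -0.11 without LPS mouse 2. Mpo, the myeloperoxidase of primary granules, reached 91.3 CPM in LPS mouse 2, against 0.551, 0.0962 and 0.0471 CPM in LPS mice 6, 7 and 8. It was at most 0.565 CPM in mice given both and at most 3.76 CPM in mice without LPS, and the fitted interaction of -7.81 was -1.37 without LPS mouse 2. It was -12.6 without PBS mouse 6, the mouse with 3.76 CPM. Prtn3, proteinase 3 of the same granules, reached 68.0 CPM in LPS mouse 2, against 3.85, 0.962 and 1.04 CPM in the others, and its interaction was -3.22 in all libraries and 0.03 without that mouse. Mature neutrophil genes rose in both settings, 23 of 24 in each, against 23.5% and 24.6% of all genes. Their median response was 2.75 without and 3.52 with ALY688. Gene by gene, their median interaction was 0.46, and 0 passed. That median was 0.21 without LPS mouse 6, 0.18 with the globin covariate and 0.285 without the 6 libraries with few detected genes.

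Platelet and red cell genes had positive interactions, and the globin share moved with them. All 25 platelet genes and all 32 red cell genes tested were positive, against 46.8% of all genes, with medians of 1.54 and 1.60, and 0 passed. The red cell median was 0.93 without ALY688+LPS mouse 8. ALY688 against PBS had a median of -1.02 over platelet genes and -0.33 over red cell genes. ALY688+LPS against LPS had medians of 0.51 and 1.28. Without ALY688, 19 platelet genes fell and 0 rose, where 20.9% of all genes fell and 23.5% rose. With it, 1 rose and 0 fell, where 24.6% of all genes rose and 23.7% fell. Rgs18, a platelet regulator of G protein signalling, stood at 76.2, 24.1, 217 and 103 CPM with LPS and at 44.8 to 505 CPM (median 177) with both, overlapping. Its interaction was 1.86 ± 0.76, and 0.33 with the globin covariate. The median interactions were -0.12 for platelet and -0.63 for red cell genes with the globin share as a covariate. They were 0.33 and 0.23 without the 6 libraries with few detected genes. Globin genes are themselves in the red cell list, and these cells' part in the other interactions was not tested beyond these values.

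Lymphocyte genes fell in both settings. All 30 T cell genes tested fell with ALY688 and 29 fell without it, with medians of -1.62 and -2.06. Of all genes, 23.7% fell with ALY688 and 20.9% without it. Interactions were positive for 24 of 30 T cell genes (46.8% of all genes), with a median of 0.37, and 0 passed. Cd5, a surface receptor of T cells, stood at 4.36, 4.13, 2.31 and 2.59 CPM with LPS and at 3.81 to 8.31 CPM (median 7.15) with both, against at least 12.5 CPM in every mouse without LPS. LPS mice 2 and 6 lay within the range of the mice given both, and LPS mice 7 and 8 below it. Its responses were -2.54 ± 0.26 and -1.75 ± 0.20, with an interaction of 0.78 (interval 0.16 to 1.40, adjusted p = 0.506). All 27 B cell genes fell with ALY688 and 26 without it, with medians of -2.30 and -2.42. The median B cell interaction was 0.18, and -0.24 without ALY688+LPS mouse 4. With the globin covariate the T cell median was 0.526 and the B cell median 0.572.

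Among the metabolic lists, sterol genes leaned negative. Among 25 sterol and fatty acid synthesis genes, 13 rose and 2 fell without ALY688 and 9 rose and 5 fell with it, with 20 of 25 interactions negative, a median of -0.38 and 0 passed. Over all genes, 23.5% rose and 20.9% fell without ALY688, and 24.6% and 23.7% with it. Interactions were negative for 53.2% of all genes, with a median of -0.03. Scd2, a fatty acid desaturase, stood at 45.1, 63.5, 25.7 and 47.3 CPM with LPS and at 25.7 to 55.5 CPM (median 32.0) with both, and had an interaction of -0.81 ± 0.29, which was -0.28 with the globin covariate. The sterol median was -0.13 with the globin covariate. Cytoplasmic ribosomal protein genes fell in 47 of 60 cases without ALY688 and in 15 of 60 with it, against 20.9% and 23.7% of all genes, with a median interaction of 0.30 and 0 passed. That median was 0.17 without LPS mouse 7, with the globin covariate or without the libraries with few detected genes. For glucocorticoid targets the median interaction (0.34, and 0.175 without LPS mouse 6) and the list medians of the responses (0.86 without, 0.64 with) differed in direction, since they are medians over different values. The same held for unfolded protein response genes (-0.08 against 0.60 without and 0.75 with) and nuclear-encoded respiratory chain genes (0.17 against 0.154 and 0.148). In none of the 30 lists did a gene pass the interaction.

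**Figure D5:**
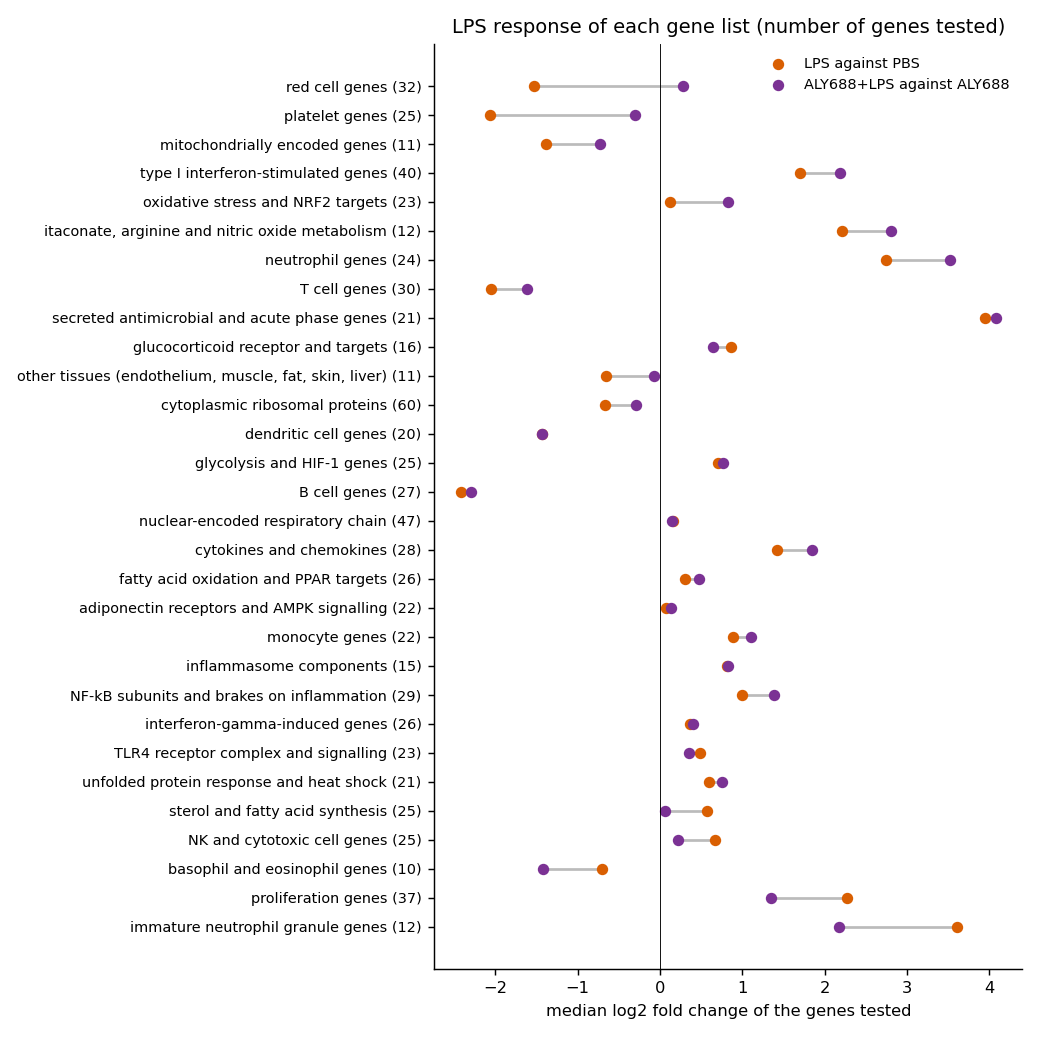
For each of the 30 gene lists (number of genes tested in brackets), points give the median log2 fold change for LPS against PBS (orange) and for ALY688+LPS against ALY688 (purple), and lists are ordered by their median interaction. Proliferation genes sit at 2.27 and 1.35, platelet genes at -2.07 and -0.301.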

How the data were processed

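The authors deposited 1 table of raw counts for each mouse, over 54532 gene IDs. The submitters' processing notes name HISAT2 2.0.5 and featureCounts 1.5.0-p3. Build, annotation and strand setting were not given in the sources used here. Antisense, overlapping and near-identical genes (Klra8, Klra4, Ighg2c, Saa3, globins) are uncertain. Symbols and coordinates came from GENCODE M21 (GRCm38), which held 54409 IDs.

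Counts of all 30 libraries entered 1 fit: TMM factors, filterByExpr, and the robust quasi-likelihood F-test of edgeR 4.0.16 in R 4.3.3, two-sided, Benjamini-Hochberg over 13476 genes, threshold 0.05. Unless another tool is named, adjusted p-values are edgeR's. Alternatives included limma 3.58.1 and DESeq2 1.42.0. Scripts were tested on simulated data. On the TMM-scaled CPM printed here, a floor of 3 counts lay between 0.0688 and 0.904 CPM, highest in PBS mouse 5 (0.904), ALY688 mouse 7 (0.828) and ALY688+LPS mouse 8 (0.762), for counting error only; lower values rest on fewer than 3 counts.

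Named genes were the 10 positive and 10 negative interactions with the smallest p, the 8 rising and 8 falling genes with the smallest p in the average LPS response (in both cases without predicted genes and those under 1 CPM), up to 3 per list, a fixed panel, and 5 called in 1 response only; 2 of these genes are not reported here. Members and lists were chosen with earlier results of these data known. Pairs of libraries in different groups with the same mouse number had a median correlation of -0.0426 (11 of 33 above 0.1). Pairs with different numbers had a median of 0.0129. These correlations cannot decide whether a number is shared, and the labels do not say so. RefSeq promoters (GRCm38.p6) were searched for 6 motif spellings (GGG, any 2 bases, TTTCC; GGGA, any base, TTTCC; GAAA, any 2 bases, GAAA; TTT, any 3 bases, GGAA; TTCNNNGAA; and TTTGGCGC) in windows of 300 and 250 bases, both strands.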

Additional observations from a re-analysis of the deposited data

Results flagged for a closer look

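Differences of library properties between mice with and without ALY688 had opposite signs in the settings without and with LPS. The null of the tests given here is no ALY688 effect in either setting. The difference of differences for ALY688 was 17.18 percentage points for the globin share (exact permutation p = 0.0248, adjusted 0.0433), -2429 for genes with a count (exact permutation p = 0.0331, adjusted 0.0433) and -0.8265 for the TMM factor (exact permutation p = 0.0433, adjusted 0.0433). The number of detected genes lost its exact permutation p below 0.05 without PBS mouse 5, LPS mice 2, 6 or 8, or ALY688+LPS mouse 6 (5 of 30 omissions), and the TMM factor in 16 of 30.

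Single mice stood apart from their group in 20 of 232 groups of values, where chance gives about 1 in 20, or 11.6. ALY688 mouse 7 had 14630 genes with a count and a TMM factor of 0.333, and log2 CPM values of -2.83 for Klhl30, 0.605 for Igfbp6, 3.12 for Tnfaip3 and 12.7 for Adipor1. The Klhl30 and Igfbp6 values rest on 0 and 5 counts. ALY688+LPS mouse 4 had log2 CPM values of 6.17 for Fpr1, 5.14 for Wfdc21, 4.83 for Il1rn and 6.13 for Nfkbia, below the rest of its group, and of 3.55 for Fam214a and 3.34 for Nxpe3, above it. ALY688+LPS mouse 8 had -0.625 for Tspoap1, -2.83 for Ptgs2 and 4.01 for Tlr4, all low; these rest on 2, 0 and 63 counts, so the Ptgs2 value is set by the prior count. In the groups without LPS, Serpinb2 was low in ALY688 mouse 1 (-0.442), and Mpo was high in PBS mouse 6 (1.96). Nos2 was high in PBS mouse 3 (-1.88) and ALY688 mouse 8 (-1.54), on 2 and 3 counts, and Arg1 was high in ALY688 mouse 3 (2.57).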

How the results depend on the processing

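The count of 0 called interactions held under limma-voom, RLE scaling, both other filters, both globin settings and both omissions of several libraries. DESeq2 called 1 positive and 3 negative interactions, and leaving out single libraries gave 0 positive and 0 to 1 negative. The replicate block on mouse number gave 0 positive and 0 negative, with 1602 at an unadjusted p below 0.05, and 2 of 30 libraries matched their own number best. Library omissions gave 2861 to 3250 rises and 2166 to 3028 falls without ALY688, and 3146 to 3528 and 2871 to 3369 with it. Ratios then ran from 0.972 to 1.04 for rising and 0.819 to 0.969 for falling genes. Differences of differences ran from 13.21 to 21.62 points of globin share, -3076 to -1944 detected genes and -1.078 to -0.5562 of TMM factor.

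Without TMM factors the median interaction of all genes moved to -0.998: 6527 genes rose and 371 fell without ALY688, 2074 rose and 1127 fell with it, ratios were 0.522 (rising) and 1.54 (falling), and 96.4% and 20% of responses were smaller with ALY688. Falling genes had ratios of 0.627 (76.8% smaller) when chosen in LPS against PBS and 1.13 (35.8%) when chosen in the other response. With the globin covariate, list medians were 0.0856 (interferon-stimulated), -0.0658 (adiponectin), -0.12 (platelet), -0.635 (red cell), -0.149 (mitochondrially encoded), -0.0219 (respiratory chain), 0.156 (unfolded protein), -0.105 (NRF2) and -0.129 (sterol). Without libraries with few detected genes they were 0.332 (platelet), 0.231 (red cell), 0.0938 (mitochondrially encoded) and -0.195 (sterol). Other list medians with the globin covariate included 0.526 (T cell), 0.572 (B cell) and -0.889 (proliferation). The cause of these changes was not tested.

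LPS responses without ALY688 that changed sign without TMM factors were Tank 1.17, Smim20 0.655, Ginm1 0.335, Bloc1s6 1.05, Nek7 0.568, Cab39 0.973, Lyz2 1.31, Tfrc 0.927, Rpl7 0.449, Ndufa6 0.982, Cox6b1 0.851, Egln3 1.13, Bag3 1.26 and Pecam1 0.00172. With the globin covariate they were Shisal2b 0.602, Acyp2 0.643, Nek7 0.122, Ctla2a 0.178, Tfrc 0.999, Rpl7 0.161, mt-Atp6 0.123, mt-Co1 0.621, Ndufv1 -0.077, Atf4 1.04, Prdx6 0.205, Cat 1.62, Fasn -0.847, Cd36 2.78, Pecam1 0.173 and Adipor1 1.48. Globin shares of PBS and LPS mice did not overlap, so these covariate values are extrapolations. The Prss34 response without ALY688 ran from -0.619 (without LPS mouse 2) to 3.06 across library omissions, and the Atf4 response with ALY688 was -0.0491 without libraries with few detected genes. The median half-width of an interaction was 0.681 to 0.766 across library omissions.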
